A study of Mus musculus with 2 samples.

Results

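The mitosis and kinetochore genes are a set of 38 genes, chosen by symbol, whose proteins build the spindle and the kinetochore, switch mitosis on and off, and divide the cell. All 38 symbols were found, through the GENCODE M21 annotation, among the 37315 gene identifiers of the count files. Levels were measured by sequencing polyadenylated RNA from whole lung of C57BL/6 mice, an inbred laboratory strain, in 1 control library and 1 library from mice exposed to PM2.5, fine airborne particulate matter. Each title ends in 12W, without a statement of what the W stands for. The labels give no age, sex, dose, route or number of animals, and no allele or agent other than the exposure. With 1 library per group there is no replicate check, no test was made, and every value describes these 2 libraries and not the conditions.

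In a dividing cell, cyclin A and cyclin B bind the kinase CDK1 and drive entry into mitosis. Chromosomes attach to spindle microtubules at their kinetochores, a checkpoint holds the anaphase-promoting complex in check until all are attached, and the complex then marks cyclin B and securin for destruction. Most of these genes are switched on only from late S phase to mitosis, so in a tissue such as adult lung, where few cells divide, their transcripts come from a small share of the cells. In whole tissue, fewer dividing cells and less of each transcript per dividing cell cannot be told apart.

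Transcripts of mitosis were scarcer in the PM2.5 library than in the control library. By count, 34 of the 38 genes were at least 1.5-fold lower with a counting interval that excluded equality, and none was higher by that rule. Among the 14518 genes tested, those whose mean over the libraries reached 1 CPM (counts per 1000000 of the scaled library size), 19.1% were lower by the same rule and 14.9% higher. All 38 genes passed that level. The median log2 ratio of PM2.5 over control was -1.06 over the 38 genes and -0.09 over all genes tested, and 5.09% of all genes tested lay below the median of the 38. The set held 20310 counts in total for the control lung and 10364 after exposure, which is 350 against 167 CPM and 2.10-fold lower (95% counting interval 2.05 to 2.15). At least 2-fold lower were 21 of the 38, against 6.04% of all genes tested, and none was at least 2-fold higher, against 7.25%. Intervals here and below are exact (Clopper-Pearson) and cover counting error only, since variation between animals and repeated reads of one molecule add to it. The libraries' totals were 62788045 (control) and 57435027 (PM2.5) counts.

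**Figure D1:**
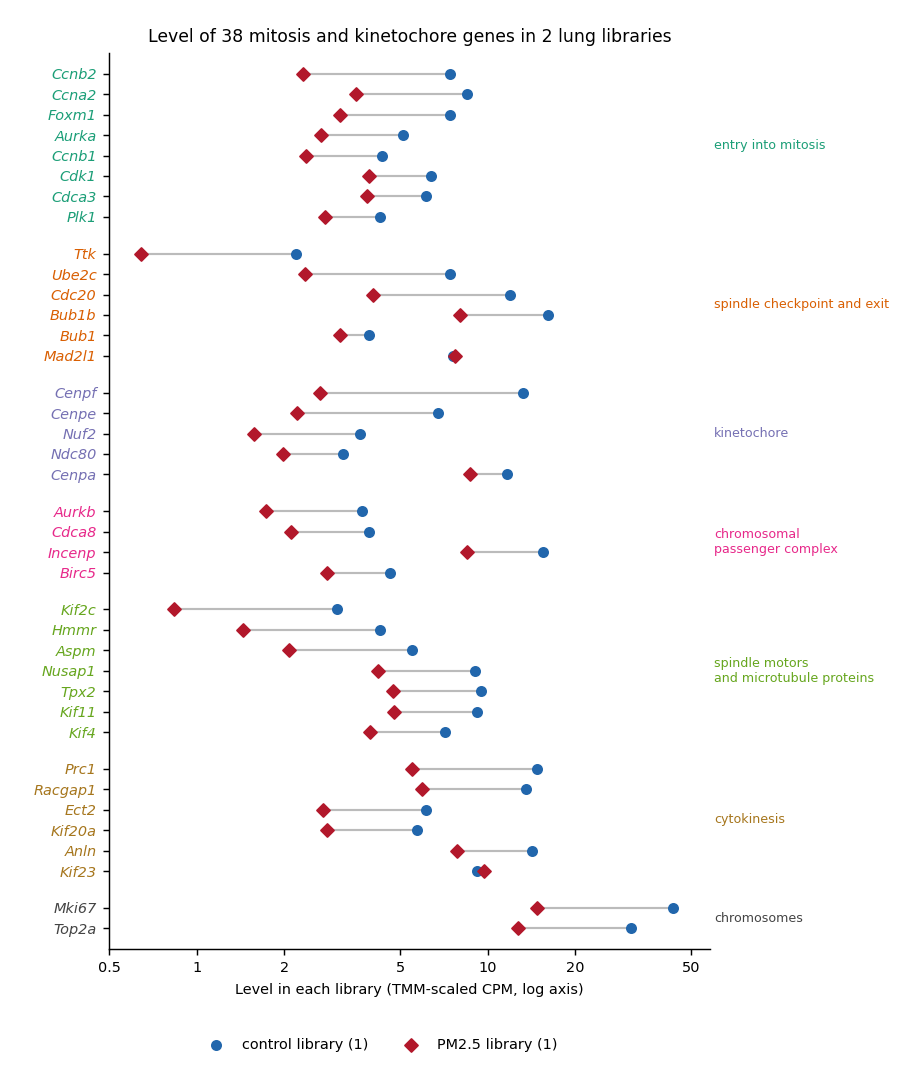
Level of each of the 38 genes in the control library (blue circles) and the PM2.5 library (red diamonds), in CPM scaled by TMM on a log axis, grouped by role and ordered by ratio within a role. The PM2.5 point lies to the left of the control point for 36 genes, and the points of Mad2l1 and Kif23 nearly coincide.

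Genes of this kind share promoter elements that the choice of the set did not use. In cell cycle genes the CHR (cell cycle genes homology region) is bound by the MuvB complex, which represses them in resting cells and, with B-Myb and FoxM1, activates them in dividing ones, and CCAAT boxes are bound by NF-Y. RefSeq promoters (GRCm38.p6) were found for 32 of the 38 genes, 34 promoters in all, with no entry for Ccna2, Foxm1, Aurkb, Incenp, Tpx2 and Kif20a. The 250 bases before each start were searched on both strands for the CHR, in its usual form TTTGAA, in the variant spelled TTCGAA and in the further variant spelled TTTAAA, and for the box CCAAT. The CHR letters were in 52.9% of these promoters, against 26.2% of all 32851 promoters in the table, and CCAAT in 79.4% against 33.8%. Within 100 bases of the start, the CHR letters were in 29.4% against 10.1%. A match is a description of the letters and not a bound site. Promoters are shown for the leading gene pair of chromosome structure and proliferation, Mki67 and Top2a, and for Bub1b, which have CHR letters and are among the members with most counts, and for Anln, the member with most counts among those with none. Of Mki67 and Anln the 150 bases nearest to the start are printed, and of Top2a and Bub1b all 250. They run 5′ to 3′ and end at the base before the RefSeq start, with CHR and CCAAT matches on either strand in capitals.
Mki67 promoter, chr7:135716380-135716529, minus strand: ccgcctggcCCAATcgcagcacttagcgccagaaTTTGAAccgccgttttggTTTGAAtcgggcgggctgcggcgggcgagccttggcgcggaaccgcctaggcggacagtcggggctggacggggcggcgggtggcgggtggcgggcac
Top2a promoter, chr11:99024190-99024439, minus strand: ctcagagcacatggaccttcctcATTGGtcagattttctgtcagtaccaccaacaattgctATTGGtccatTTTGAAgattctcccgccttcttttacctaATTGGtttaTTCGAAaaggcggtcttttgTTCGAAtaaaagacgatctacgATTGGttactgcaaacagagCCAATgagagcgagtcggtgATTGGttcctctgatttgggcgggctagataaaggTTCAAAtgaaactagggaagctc
Bub1b promoter, chr2:118597961-118598210, plus strand: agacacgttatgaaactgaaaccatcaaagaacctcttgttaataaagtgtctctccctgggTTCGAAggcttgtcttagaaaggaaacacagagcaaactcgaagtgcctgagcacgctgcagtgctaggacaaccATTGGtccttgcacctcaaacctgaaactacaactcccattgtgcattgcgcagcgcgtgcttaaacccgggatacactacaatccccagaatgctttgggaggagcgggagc
Anln promoter, chr9:22389207-22389356, minus strand: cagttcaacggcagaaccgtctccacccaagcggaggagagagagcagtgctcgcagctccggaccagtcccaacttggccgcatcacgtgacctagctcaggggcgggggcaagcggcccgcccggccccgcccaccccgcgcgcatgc
The Mki67 promoter held 2 copies of TTTGAA, which begin 98 and 116 bases before the start, and 3 CCAAT matches, at 141 and, beyond the printed bases, at 166 and 188. That of Top2a held 4 CHR matches and 6 CCAAT matches, the CHR nearest to the start beginning 23 bases before it. Bub1b had 1 CHR match, 188 bases before the start, and Anln had neither element in its 250 bases. The median log2 ratio was -1.29 over the 17 genes with CHR letters and -0.89 over the 15 without, both on the lower side. The groups overlapped, from -2.32 (Cenpf) to -0.42 (Cenpa) with CHR letters and from -1.77 (Ttk) to 0.08 (Kif23) without. A match anywhere in the 250 bases counted, and the difference between the groups was not tested. Anln itself was 1.82-fold lower (1.62 to 2.04). E2F letters (TTTCCCGC, TTTGGCGC, TTTCGCGC or TTTGCCGC) were in 1 of the 34 promoters, that of Cdk1, and in 1.86% of all promoters.

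The proliferation marker Mki67 and Top2a had the most counts of the set, and both were lower in the PM2.5 library. Mki67 encodes Ki-67, a protein that coats mitotic chromosomes and keeps them apart (ENSMUSG00000031004, GRCm38 chromosome 7, 135689784 to 135716361, minus strand). Its 2505 control and 919 PM2.5 counts correspond to 43.2 and 14.8 CPM, which is 2.92-fold lower (2.71 to 3.16). Top2a, the DNA topoisomerase that untangles sister chromatids, had 1809 and 793 counts and was 2.45-fold lower (2.25 to 2.66). Per kilobase of transcript, Top2a was the fourth of the 38 genes in the control and Mki67, a long transcript, the 11th, at 5.98 and 4.29 CPM per kb. Together these genes held 21.2% of the counts of the set in the control and 16.5% after exposure. The other 36 genes lay between 2.19 and 16.1 CPM in the control and between 0.643 and 9.69 CPM in the PM2.5 library.

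All 8 genes for entry into mitosis were lower, with a median log2 ratio of -0.90. Ccnb2, which encodes cyclin B2, had 431 and 144 counts and was 3.21-fold lower (2.65 to 3.91). Its relative Ccnb1, for cyclin B1, had 252 and 148 counts and was 1.83-fold lower (1.49 to 2.25), so the counting intervals of these cyclins do not overlap. Ccnb1 has 5 pseudogenes in the annotation that align to it with at least 94.4% identity over stretches of 383 to 1294 nt, so reads could be divided between them. The pair of these that the files list had at most 1 count in a library. Ccna2, for cyclin A2, with 492 and 219 counts, was 2.41-fold lower (2.05 to 2.84), and the kinase gene Cdk1, with 369 and 243 counts, 1.63-fold lower (1.38 to 1.92). Cdk1 thus differed less between the libraries than Ccna2 beyond counting error, while its interval overlaps that of Ccnb1. Foxm1, the transcription factor that activates late cell cycle genes, had 429 and 193 counts, 2.38-fold lower (2.01 to 2.84). Aurora A kinase, Aurka, which matures the centrosomes, had 296 and 166 counts, 1.91-fold lower. The polo-like kinase gene Plk1 (248 and 171 counts) and Cdca3, which promotes mitotic entry (355 and 239 counts), were the least changed of the 8, at 1.56-fold lower (1.28 to 1.90) and 1.59-fold lower (1.35 to 1.89). Plk1 lies just inside the 1.5-fold size, and a pseudogene similar to it, Plk-ps1, had 32 and 40 counts.

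The spindle checkpoint and the genes for exit from mitosis were split. Cdc20, the activator of the anaphase-promoting complex and the target of the checkpoint, had 692 and 250 counts and was 2.97-fold lower (2.57 to 3.45). Ube2c, the ubiquitin-conjugating enzyme of that complex, had 430 and 147 counts and was 3.14-fold lower (2.60 to 3.81). Ttk encodes MPS1, the kinase that starts checkpoint signalling, and with 127 and 40 counts it was 3.41-fold lower (2.37 to 4.99) and had the fewest counts of the set in both libraries. Bub1b, for BUBR1, a part of the complex that inhibits Cdc20, had 931 and 501 counts, 1.99-fold lower (1.79 to 2.23). The other checkpoint genes did not reach the 1.5-fold size. Bub1, a kinase that marks the centromere, had 227 and 193 counts, a ratio of 0.792 (0.651 to 0.964) that does not overlap that of Bub1b. Mad2l1 encodes MAD2, which unattached kinetochores convert into the inhibitor of Cdc20 (ENSMUSG00000029910, GRCm38 chromosome 6, 66535390 to 66547220, plus strand). It had 441 and 480 counts, and its ratio of 1.01 (0.890 to 1.16) did not differ from 1 beyond counting error with TMM scaling. The median of these 6 genes was -1.28, but they ranged from -1.77 to 0.02.

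Of the kinetochore genes, 4 of 5 were lower. Cenpf, for a large protein of the outer kinetochore (ENSMUSG00000026605, GRCm38 chromosome 1, 189640606 to 189688086, minus strand), had the lowest ratio of the set with TMM scaling. Its 767 control counts stood against 165 after exposure, or 13.2 against 2.65 CPM, which is 4.99-fold lower (4.21 to 5.94). Cenpe, the kinetochore motor that carries chromosomes to the spindle equator, had 392 and 137 counts, 3.07-fold lower (2.52 to 3.76). Ndc80 and Nuf2 form, within the NDC80 complex, the rod that grips the microtubule. With 185 and 123 counts for Ndc80 and 211 and 98 for Nuf2, they were 1.61-fold (1.28 to 2.04) and 2.31-fold (1.81 to 2.97) lower, and these intervals overlap. Cenpa, the histone variant that marks the centromere, had 673 and 540 counts and a ratio of 0.748 (0.667 to 0.839), on the lower side but short of 1.5-fold. Cenpa also had the highest level per kilobase of transcript in the set in both libraries, 7.92 CPM per kb in the control and 5.92 after exposure.

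The chromosomal passenger complex corrects faulty attachments at the centromere and then moves to the midzone of the spindle, and the genes of all 4 subunits were lower. The kinase gene Aurkb had 215 and 108 counts (2.14-fold lower, 1.69 to 2.72), and the scaffold gene Incenp 899 and 530 (1.82-fold, 1.63 to 2.03). The targeting subunits are survivin, Birc5, with 268 and 174 counts (1.65-fold, 1.36 to 2.01), and borealin, Cdca8, with 226 and 131 (1.85-fold, 1.49 to 2.31). The counting intervals of all 6 pairs of these genes overlap. The median log2 ratio of the complex was -0.88.

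**Figure D2:**
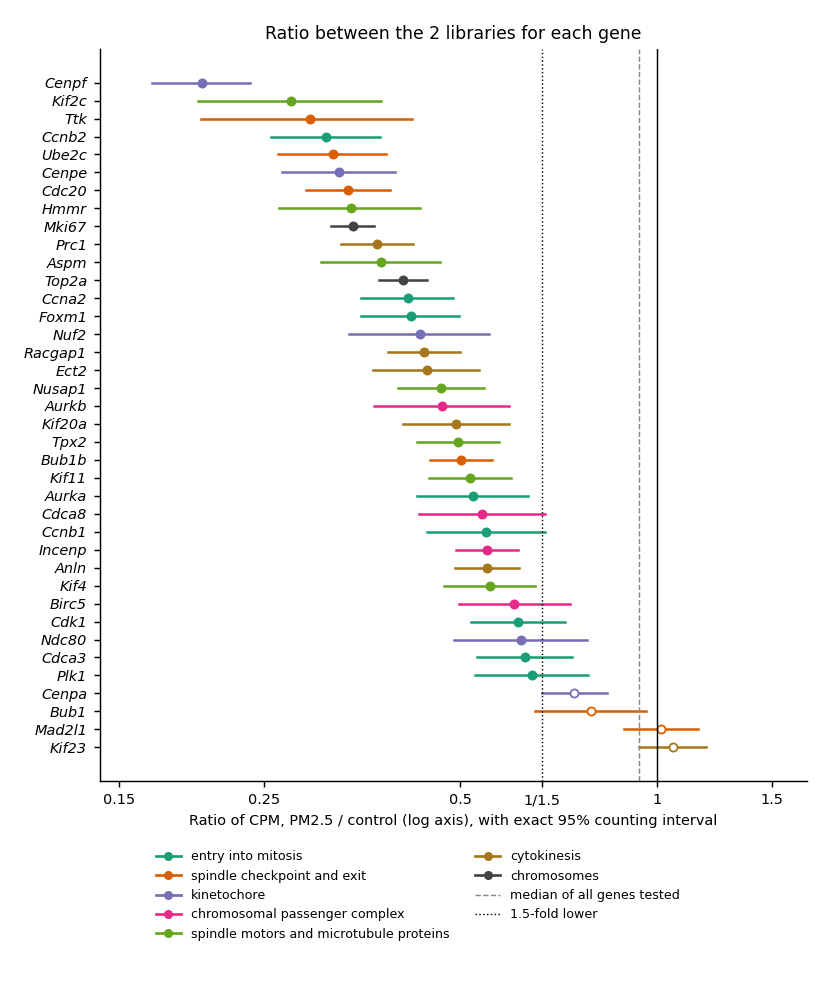
Ratio of CPM, PM2.5 over control, on a log axis for each gene with its exact 95% counting interval, coloured by role; filled points were at least 1.5-fold lower with an interval excluding 1. The 4 open points are Cenpa, Bub1, Mad2l1 and Kif23, and the dashed line is the median of all genes tested.

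All 7 genes for spindle motors and microtubule proteins were lower, with a median of -1.10. Kif2c, the kinesin MCAK that takes microtubules apart at the centromere, had 176 and 52 counts and was 3.63-fold lower (2.65 to 5.05). Kif11, the motor that pushes the spindle poles apart, had 533 and 296 counts, 1.93-fold lower (1.67 to 2.23), and the chromosome-bound motor gene Kif4, on the X chromosome, 412 and 245, 1.80-fold lower (1.54 to 2.12). Their intervals do not overlap that of Kif2c. Among the microtubule-binding proteins, Hmmr, with 247 and 90 counts, was 2.94-fold lower (2.30 to 3.79). The spindle pole protein gene Aspm, with 318 and 129, was 2.64-fold lower (2.15 to 3.27), and Nusap1, with 523 and 262, 2.14-fold lower (1.84 to 2.49). Tpx2, the activator of Aurora A, had 551 and 293 counts and was 2.02-fold lower (1.75 to 2.33), an interval that overlaps that of Aurka.

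Genes of cytokinesis were lower in 5 of 6 cases. Prc1, which bundles the microtubules of the midzone, had 855 and 342 counts, 2.68-fold lower (2.36 to 3.05). Racgap1, with 782 and 369 counts, was 2.27-fold lower (2.01 to 2.58), and Ect2, which activates RhoA at the cleavage furrow, with 355 and 169, was 2.25-fold lower (1.87 to 2.72). Kif20a, a motor of the midzone, had 331 and 175 counts (2.03-fold lower), and the furrow protein gene Anln 826 and 487 (1.82-fold). Kif23 stood apart from its partner. Its protein and that of Racgap1 form centralspindlin, which anchors the midzone, yet Kif23 (ENSMUSG00000032254, GRCm38 chromosome 9, 61915905 to 61946774, minus strand) had 531 control and 603 PM2.5 counts. This is 9.16 and 9.69 CPM, a ratio of 1.06 (0.940 to 1.19), the highest of the set with TMM scaling. Kif23 was 16th of the 38 genes by level per kilobase in the control and in the third place after exposure, behind Cenpa and Birc5.

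The order of the genes by ratio can be read only coarsely, since the counting intervals of all 37 pairs of neighbours in it overlap. The levels of the 38 genes kept a similar order between the libraries (Spearman's rho = 0.85 across genes, which share both libraries). Just inside the 1.5-fold size lay Plk1 and Cdca3, with ratios of 0.643 and 0.628, and just outside it Cenpa and Bub1. With library totals in place of TMM, which raises all log2 ratios by 0.23, 29 genes were lower, and Birc5, Cdca3, Cdk1, Ndc80 and Plk1 no longer reached the size. Of all genes tested, 9.90% were then lower and 23.8% higher, with a median log2 ratio of 0.14. For the upper quartile these shares were 13.2% and 19.5%, and the median 0.05. After removal of the trend with transcript length, 16.2% of all genes were lower and 13.2% higher. The same 36 genes had a ratio below 1, and Mad2l1 and Kif23 a ratio above 1, under each of 4 other scalings, after thinning of the deeper library and after removal of the trend with transcript length. With library totals the ratios of Mad2l1 and Kif23 were 1.19 and 1.24, above their counting intervals under TMM. Removal of the length trend made Mad2l1 the highest of the set, at 1.29, and Ube2c the lowest, at 0.235. The value for Mad2l1 rests on the transcript length taken for it, 7557 nt.

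Transcript length moved with the ratio in these libraries but varied little with it inside the set. Across all genes tested the ratio was lower for longer transcripts (rho = -0.41 across genes). The median log2 ratio was 0.25 in the 25% of genes with the shortest transcripts (up to 1873 nt) and -0.42 in the 25% with the longest (4453 nt or more). The 38 genes spanned 947 to 11130 nt, and rho between ratio and length among them was -0.12. The 19 shorter genes, of up to 3052 nt, had a median of -1.10, and the 19 longer ones -1.01. Short Ube2c, at 967 nt, and long Cenpe, at 7910 nt, had ratios of 0.319 and 0.326. With the length trend over all genes removed, the median of the set was -1.05 and 34 genes were lower, with Cdk1 no longer among them and Cenpa added. Mad2l1 is placed at 7557 nt by a principal transcript far longer than those of the other checkpoint genes. Its level per kilobase and its ratio after removal of the length trend depend on that choice.

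**Figure D3:**
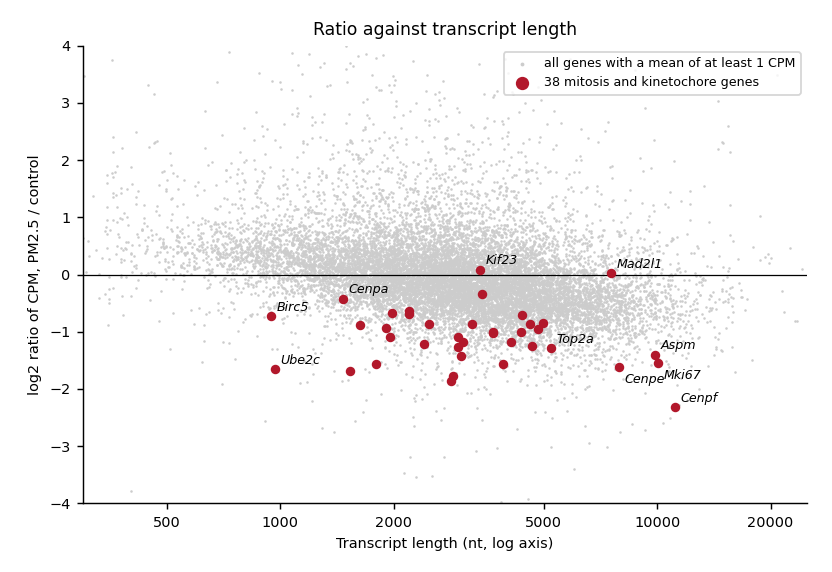
The log2 ratio of CPM, PM2.5 over control, against transcript length on a log axis, for all genes tested (grey) and the 38 mitosis and kinetochore genes (red). The grey cloud slopes downwards with length, while the red points range from -2.32 (Cenpf, the longest at 11130 nt) to 0.08 (Kif23) with little slope; 73 genes fall outside the axes.

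Several of the genes overlap another gene in their exons. Opposite-strand neighbours with counts of their own were Exosc9 at Ccna2, Elovl1 at Cdc20, 9930104L06Rik at Cdca8, Cdc23 at Kif20a, Pdzd11 at Kif4, Oip5 at Nusap1 and Rccd1 at Prc1. The library kit marks strand, and the counting's strand setting is not given in the sources used here, so reads in these overlaps are uncertain. The longest overlap, 1271 nt, was that of Kif20a with Cdc23, which had 2824 and 2329 counts. Kif23, Bub1 and Cenpa overlap no other annotated exon, and Mad2l1 overlaps none but has 2 processed pseudogenes of at least 92.1% identity that the files do not list.

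Other genes of cell division differed by list. Beside the counts below stand 19.1% of all genes lower and 14.9% higher, or the shares above for the other settings. Of 26 further spindle and cytokinesis genes that passed the level, 16 were lower and 1 higher, with a median of -0.70. With library totals 10 were lower and 2 higher (median -0.47), and with the length trend removed 11 were lower (median -0.49). Iqgap3, a scaffold of the cell cortex, had 337 and 69 counts, 5.24-fold lower (4.03 to 6.89), and the spindle pole genes Numa1 and Ckap5 had ratios of 0.628 and 0.594. Haus8, of the augmin complex that branches microtubules, went the other way, with 385 and 918 counts, a ratio of 2.22 (1.97 to 2.51), while Haus6 had a ratio of 1.05. Of 19 genes of condensin, cohesin and their control, 11 were lower and 1 higher, with a median of -0.63. The number lower was 7 with library totals (median -0.40), with the upper quartile (-0.49) and with the length trend removed (-0.41). The condensin gene Ncapd2 had 1369 and 657 counts (ratio 0.447), and the cohesin genes Rad21, Stag2 and Smc1a ratios of 0.652, 0.714 and 0.702. Pttg1, which encodes securin, the inhibitor of separase, was the exception. Its 220 control and 2466 PM2.5 counts give a level 10.4-fold higher (9.10 to 12.05).

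Other kinetochore genes were on both sides of equality. Of 29 that passed the level, 6 were lower and 2 higher, and their median log2 ratio of -0.07, which turns positive under scaling by library totals or the upper quartile, was close to that of all genes. With library totals 3 were lower and 4 higher, and with the upper quartile 4 and 3. Knl1, the platform on which Bub1 and Bub1b dock, had 214 and 93 counts, a ratio of 0.405 (0.314 to 0.519). The checkpoint partner Bub3 had 4051 and 4153 counts (0.956), and the centromere protein gene Cenpb 24708 and 20780 (0.784). Hjurp, the chaperone that loads the Cenpa protein, had 778 and 4440 counts and was 5.32-fold higher (4.93 to 5.75). The difference between these lists and the 38 genes was not tested.

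Among other mitotic kinases and phosphatases, 4 of 17 genes were lower (23.5%) and 1 higher, against 19.1% and 14.9% of all genes tested. Their median of -0.18 turns positive with library totals, as does that of all genes. With library totals, and also with the upper quartile, 2 were lower and 2 higher. Ccnf, cyclin F, had 241 and 112 counts (ratio 0.433), and Fbxo5, for the inhibitor EMI1 of the anaphase-promoting complex, 168 and 292 (1.62, 1.34 to 1.97). The genes with most counts, Ensa, Arpp19 and Cdc25b, had ratios of 1.09, 0.883 and 0.963. Of 16 genes for the anaphase-promoting complex and its partners, 1 was lower and 2 higher, with a median of -0.05 that turns positive with library totals and the upper quartile. Under both of these scalings none was lower, and with the length trend removed none was higher. The subunit genes Anapc5, Anapc1 and Anapc2 had ratios of 1.08, 0.658 and 0.673, and Anapc13 one of 1.60. Cdc20 and Ube2c, which serve the same complex, had ratios of 0.337 and 0.319.

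The lists of MuvB, pocket protein and E2F genes and of DNA replication genes had medians nearer to that of all genes than the 38 genes did. Foxm1, which works with MuvB, is one of the 38 and is not in the first list. In that list 6 of 19 were lower and none higher, with a median of -0.33. With library totals 2 were lower and 1 higher (median -0.10), with the upper quartile 3 were lower, and with the length trend removed 2. The MuvB DNA-binding subunit gene Lin54 had 1224 and 839 counts (ratio 0.639), Rbl2, for the pocket protein p130, 5305 and 3478 (0.611), and Tfdp2, an E2F partner, 6320 and 4054 (0.598). Mybl2, for B-Myb, had 131 and 158 counts, a ratio of 1.12 (0.886 to 1.43), E2f1 a ratio of 1.14 (1.02 to 1.27), E2f5 one of 1.36 and Rbbp4 one of 0.834. Of 23 genes of replication and its licensing, all of which passed the level, 1 was lower and 3 higher, with a median of -0.12 that turns positive with library totals and the upper quartile. Both of these scalings gave 5 higher, and removal of the length trend 2 lower and 1 higher. Tyms, the thymidylate synthase, had 403 and 803 counts (ratio 1.86, 1.65 to 2.10), and Rrm2, a ribonucleotide reductase subunit, 438 and 256 (0.545, 0.465 to 0.637). The clamp gene Pcna, the helicase gene Mcm6 and Rrm1 had ratios of 1.19, 0.801 and 0.876.

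**Figure D4:**
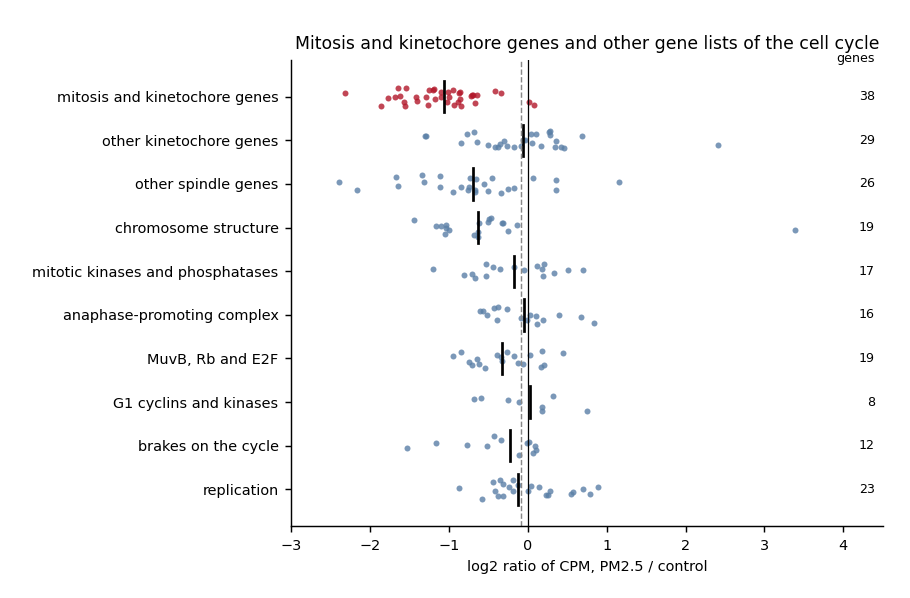
The log2 ratio of CPM, PM2.5 over control, of each tested gene in the set of 38 (red) and in 9 other cell cycle lists (blue), with the list median as a black bar, the median of all genes as a dashed line and the number of genes on the right. The medians are -1.06 for the 38 genes and -0.70 and -0.63 for the other spindle and the chromosome structure genes, and lie between -0.33 and 0.03 for the other 7 lists.

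Markers of several cell types that can divide, or that could be present in different amounts, also differed between the libraries. All 7 endothelial markers were lower, with summed levels of 5241 (control) and 2341 (PM2.5) CPM. Of 6 fibroblast markers 5 were lower, with summed levels of 4699 and 1101 CPM. Most of the control sum came from Eln (1495 and 95.4 CPM) and Col3a1 (1356 and 367 CPM). Pdgfra had a ratio of 0.361, and Tcf21, the exception, a ratio of 1.06 (1.02 to 1.11). Of 8 erythroid markers that passed the level (of 10), 7 were lower, with summed levels of 5778 and 2453 CPM. Most of both sums came from the globin genes Hbb-bs (2664 and 1443 CPM), Hba-a1 (2335 and 616) and Hbb-bt (539 and 238). Tfrc, for the transferrin receptor, had a ratio above 1, 1.42 (1.36 to 1.48). Klf1 and Epb42 did not pass, with 8 and 11, and 44 and 18 counts. Of 9 neutrophil precursor markers 5 passed the level, with 2 lower and 2 higher and summed levels of 612 and 807 CPM. Most of both sums came from Chil3 (415 and 475 CPM) and Lcn2 (140 and 216 CPM). Ngp had a ratio of 0.298 and Ltf one of 3.42. The primary granule genes Mpo, Elane, Ctsg and Prtn3 did not pass, with 15 and 9, 2 and 4, 0 and 2, and 38 and 70 counts. Of 6 thymocyte markers 2 passed, Cd8b1, which was higher with 464 and 748 counts, and Themis, with a ratio of 0.976. Rag2 and Ptcra had no count in either library, Rag1 had 16 and 4, and Dntt 11 and 103. Of 5 plasmablast markers 2 were higher and none lower, with summed levels of 290 and 353 CPM. Xbp1 made up most of both sums (225 and 241 CPM, ratio 1.07), and Jchain and Prdm1 had ratios of 2.61 and 0.703. Of 6 alveolar macrophage markers likewise 2 were higher and none lower, with 226 and 243 CPM. Car4 alone made up most of both sums of the macrophage list (165 and 169 CPM), and Marco and Siglecf had ratios of 3.57 and 0.681. After removal of the length trend, 2 of these 6 were lower and 1 higher. Of 5 alveolar type 2 markers 2 were lower and none higher, with a median log2 ratio of -0.47. Their summed level was 20886 CPM in the control and 23009 CPM after exposure, a rise that came from Sftpc, for surfactant protein C, alone (14437 and 18643 CPM, ratio 1.29). The others had ratios of 0.516 (Abca3), 0.596 (Slc34a2), 0.722 (Sftpb) and 0.988 (Lamp3). Of the further genes that mark lung, Scgb1a1, for the club cell secretoglobin, had a ratio of 1.54, and Ager and Cldn18 ratios of 0.712 and 0.633. In whole lung RNA, the cells that the transcripts of a listed marker came from, such as Car4 or Chil3, cannot be told. The part of these cell types in the lower level of the mitosis genes was not tested.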

How the data were processed

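Raw counts per Ensembl gene identifier were deposited for each library. Per the submitters' processing notes, TopHat2 2.1.1, HTSeq 0.6.0 and the mouse build mm10 were used, and neither the annotation release nor the strand setting is given in the sources used here. Samples were grouped by the exposure the labels give. The members and lists were chosen with earlier results of these data known.

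Symbols, coordinates and transcript lengths (longest principal transcript) came from GENCODE M21 on GRCm38, the assembly called mm10, and promoters from RefSeq (GRCm38.p6). Library sizes were multiplied by TMM factors from edgeR 4.0.16 (0.923 control, 1.08 PM2.5). The ratio of CPM carries an exact 95% interval, computed from the share of a gene's counts that came from the exposed lung. A gene entered at a mean of at least 1 CPM and was called at 1.5-fold with an interval excluding 1. With 62788045 and 57435027 counts, 3 counts are 0.0517 and 0.0482 CPM. A single library per group allows no p-value.

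All 38 members are named. From each other list, the 3 genes with most counts, the highest and the lowest by the nearer interval bound, and 10 genes fixed by name were taken. Markers in the cell type paragraph beyond these were named after their values were seen. The rule for promoters takes Cenpa too, whose window overlaps its GENCODE exons and is not printed. Copies were sought with BLAST 2.17.0 (at least 90% identity over 200 nt). Alternatives were scaling by library totals, by the upper quartile, by DESeq2 1.42.0 size factors and by TMM without the 100 genes with most counts, and other filters and sizes, thinning, and removal of a lowess length trend. The interval and the calling rule were run on simulated counts with counting error alone and known library sizes. That run does not test variation between animals, repeated reads, scaling or the length trend. Software was R 4.3.3 and, under Python 3.11.15, scipy 1.17.1, pandas 2.3.3, numpy 2.4.6 and statsmodels 0.14.6.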

Additional observations from a re-analysis of the deposited data

How the results depend on the processing

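The number of mitosis and kinetochore genes counted as lower was 34 as reported, 21 at a size of 2-fold, and 6 of the 7 genes that pass a mean of 10 CPM, where fewer genes enter. It lay between 27 and 34 under the other 8 alternatives, the lowest with an interval wholly beyond 1.5-fold and 29 and 30 with library totals and the upper quartile. Of all genes tested, 14.4%, 9.90% and 13.2% were lower under these settings, in that order. No gene of the set was counted as higher under any of the 10 alternatives. The median log2 ratio lay between -1.07 and -0.83 under the 8 alternatives that recompute it, and the median of all genes moved by 0.23 with library totals and by 0.14 with the upper quartile. Of single genes, 14 moved beyond their counting interval with library totals, 2 with the upper quartile and 11 with the length trend removed, and none that was counted as lower passed to a ratio above 1. Depth limits the order of the genes more than their direction: the rarest, Ttk, rests on 127 and 40 counts. No paired analysis was possible because each group has 1 library, and for the same reason no replicate could be left out.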

Other observations

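Genes that act before S phase or hold the cycle back did not share one direction. Of 8 genes for G1 cyclins and their kinases, 2 were lower (25%) and 1 higher (12.5%), with a median log2 ratio of 0.03. Over all genes tested, 19.1% were lower and 14.9% higher. None of the 8 was lower with library totals, the upper quartile or the length trend removed. Ccnd2, cyclin D2, had 11431 and 8156 counts, a ratio of 0.665 (0.646 to 0.684), while Ccnd1 and Ccnd3 had ratios of 0.929 and 0.837. Ccne1, cyclin E1, had 94 and 169 counts, a ratio of 1.68 (1.29 to 2.18). Of 12 genes that restrain the cycle, 3 were lower (25%) and none higher. Their median of -0.23 reaches 0.00 with library totals, where that of all genes is 0.14. The CDK inhibitor gene Cdkn1a, which encodes p21, had 6956 and 2591 counts and was 2.88-fold lower (2.75 to 3.01). Cdkn1c, for p57, had 5710 and 2743 counts, 2.23-fold lower (2.13 to 2.34), and Cdkn1b, for p27, 5157 and 5513, a ratio of 0.996 (0.959 to 1.04). The antiproliferative genes Btg1 and Btg2 had ratios of 0.926 and 1.01, and Ccng1 one of 1.08.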
